A study of Rattus norvegicus with 14 samples.

Results

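The genes described are 10 members of the circadian clock, found as the rows of the deposited expression table whose gene symbol is Arntl, Npas2, Per1, Per2, Per3, Cry2, Nr1d1, Nr1d2, Dbp or Tef. All 10 were present among the 17019 genes of the table, and all 10 passed the filter on low values in each comparison. The table holds polyadenylated RNA from the aorta of male Dark Agouti rats, with 14 libraries and 1 rat per library. The control group (rats 41, 42, 43, 44 and 46) was left untreated and killed after 14 weeks. The uremic group (rats 9, 17, 20, 27 and 28) had 5/6 nephrectomy, a surgical reduction of kidney mass, and after 8 weeks of uremia received alfacalcidol, a vitamin D analogue, at 30 ng on 3 days a week for 6 weeks, which made 14 weeks of uremia in all. The third group (rats 36, 37, 38 and 39), called control with vitamin D, had intact kidneys and received vitamin D, at a dose and for a time not given in the sources used here. The series notes name a high-phosphate diet as a condition for calcification, without saying which rats were fed it. No label gives the time of day at which an aorta was taken, the light schedule or a batch, so the levels could not be placed on a daily cycle.

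The mammalian clock is a loop of transcription factors that runs in nearly every cell, vascular smooth muscle and endothelium included. Arntl (also called Bmal1) pairs with Clock or Npas2 and switches on genes with E-box motifs, among them the Per and Cry genes, whose proteins feed back to block it, and Nr1d1 and Nr1d2, nuclear receptors that repress Arntl through ROR elements. Dbp and Tef are related transcription factors that bind D-box motifs and carry the rhythm to output genes. In tissues with a running clock, Arntl and Npas2 messages peak at about the opposite time of day to those of Nr1d1, Dbp, Tef and Per3, and Per1 and Per2 also respond within hours to hormones and other signals.

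The sequences that link these genes to each other were looked up in RefSeq promoters of the rat build GRCr8, from 250 bases before to 50 bases after each transcript start, where all 10 genes matched and Arntl is listed as Bmal1. Searched on both strands were the E-box CACGTG, the D-box TTANGTAA, the ROR element (the bases AANTN followed by GGTCA) and the cAMP response element TGACGTCA, none of which overlapped in these windows. Of 33469 rat promoters of the same length, 6.42% held the E-box, 2.24% the D-box, 0.852% the ROR element and 1.83% the cAMP response element. Among the clock genes, the ROR element was found in Arntl, its first base 19 bases before the start. The D-box was found in Per2, 192 bases before the start. The E-box was found in Tef, 198 bases before the start, and in the second of the windows of Nr1d1, 191 bases before it. The 4 windows are shown because each holds a motif of the clock loop itself, in capitals, and because these 4 genes stand for its arms (activator, repressor, output and nuclear receptor). They read 5′ to 3′ on the gene's strand, chr1:176766078-176766377 (plus strand) for Arntl, chr9:99496944-99497243 (minus) for Per2, chr7:115206577-115206876 (plus) for Tef and chr10:84229405-84229704 (minus) for Nr1d1.
Arntl: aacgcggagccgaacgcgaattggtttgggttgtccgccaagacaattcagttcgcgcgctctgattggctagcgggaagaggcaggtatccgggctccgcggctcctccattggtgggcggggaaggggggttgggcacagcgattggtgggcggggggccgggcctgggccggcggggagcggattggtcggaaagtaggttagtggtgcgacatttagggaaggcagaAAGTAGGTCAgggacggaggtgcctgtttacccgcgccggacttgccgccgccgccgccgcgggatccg
Per2: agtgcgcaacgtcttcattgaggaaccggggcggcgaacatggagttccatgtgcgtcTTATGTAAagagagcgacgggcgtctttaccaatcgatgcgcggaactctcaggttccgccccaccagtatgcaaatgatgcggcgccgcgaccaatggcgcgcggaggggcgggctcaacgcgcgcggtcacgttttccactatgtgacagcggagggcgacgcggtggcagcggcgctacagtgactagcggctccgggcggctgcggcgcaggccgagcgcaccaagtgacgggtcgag
Tef: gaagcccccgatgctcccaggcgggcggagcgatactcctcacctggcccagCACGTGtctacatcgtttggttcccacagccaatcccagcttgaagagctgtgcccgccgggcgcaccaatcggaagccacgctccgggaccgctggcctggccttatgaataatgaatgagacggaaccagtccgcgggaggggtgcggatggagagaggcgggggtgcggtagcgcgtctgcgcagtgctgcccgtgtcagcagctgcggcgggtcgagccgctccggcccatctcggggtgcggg
Nr1d1: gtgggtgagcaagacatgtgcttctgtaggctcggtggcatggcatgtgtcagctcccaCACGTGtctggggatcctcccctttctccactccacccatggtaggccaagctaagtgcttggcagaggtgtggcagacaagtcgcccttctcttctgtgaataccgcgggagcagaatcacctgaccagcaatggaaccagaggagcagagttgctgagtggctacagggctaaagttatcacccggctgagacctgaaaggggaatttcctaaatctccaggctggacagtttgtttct
These matches are a description of the letters, not of binding, and the 6 genes without one may hold such motifs outside the window.

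Values are FPKM, fragment counts scaled for transcript length and library depth, so levels of different genes can be set side by side. Smooth muscle markers were present in all libraries (10 of 10 listed genes detected, with a summed level of 10035 to 31434 FPKM), as the tissue label says. The number of reads behind each value was recovered from the steps of the FPKM values, and libraries held between 1331100 and 4539065 reads over the recovered genes. Arntl had from 1 read in control rat 44 to 177 in rat 39 (median 65.0) and Nr1d2 from 6 to 132 (median 46.5), while Per1 had 310 to 1511 and Dbp 47 to 1981. Nr1d1 shares its row's locus (chr10:86453435-86486808 in rn5) with Thra, the thyroid hormone receptor alpha gene that overlaps it in the opposite direction. Whether counting used strand is not given in the sources used here, so reads of Nr1d1 and Thra could not be told apart where they overlap. None of the other 9 genes shared its locus with another row.

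Control rat 46 stood apart from the other control rats in 9 of the 10 genes. It had the highest Arntl and Npas2 levels of the 5 control rats and the lowest levels of Per1, Per2, Per3, Nr1d1, Nr1d2, Dbp and Tef, while its Cry2 lay within the others. Among the rats given vitamin D with intact kidneys, rats 36 and 39 had high Arntl and Npas2 with low Per1, Per2, Per3, Nr1d2, Dbp and Tef, and rats 37 and 38 had the reverse. Rat 39 did not follow this in Nr1d1, which was highest in that rat. Among the uremic rats, rat 27 was lowest in Arntl, Npas2, Per1 and Per2 and highest in Per3, Nr1d1, Dbp and Tef. Group differences that involve the controls are therefore given with all libraries and without control rat 46, which was singled out after its values were seen. Because that rat was chosen for its values in these same genes, leaving it out favours larger differences and smaller SEs in them. Their p-values and counts without control rat 46 are therefore descriptions and not independent tests.

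**Figure D1:**
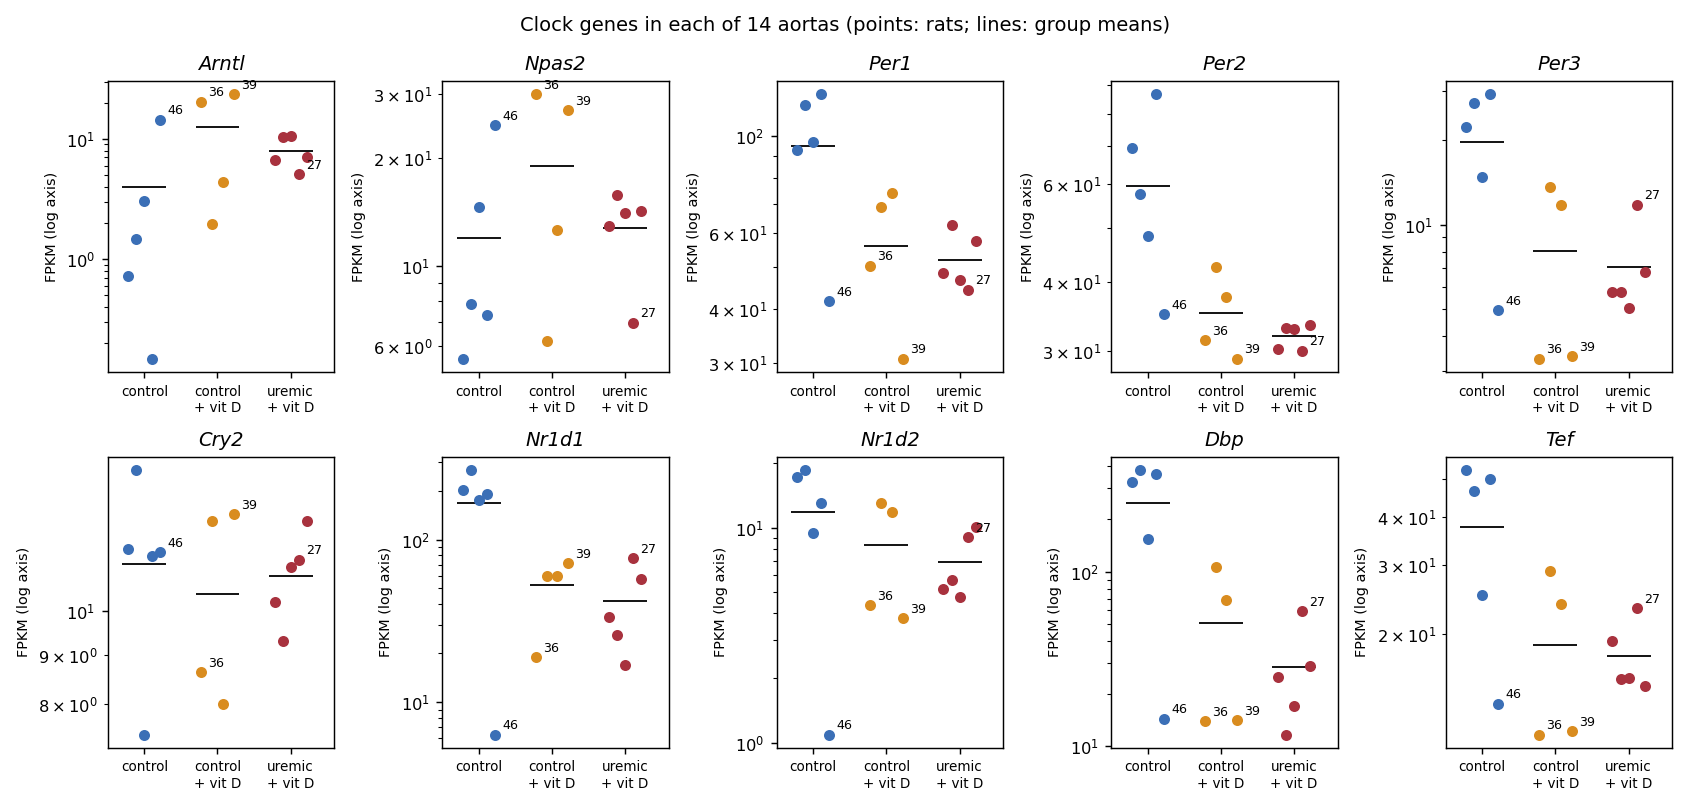
FPKM of each clock gene on a log axis in each of 14 aortas, by group, with points for rats, lines for group means and rat numbers beside control rat 46, rats 36 and 39 and uremic rat 27. Control rat 46 has the highest Arntl (14.4) and the lowest Dbp (14.4) of its group, and the 5 uremic rats form the tightest cluster in Per2 (30.1 to 33.5).

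The activator Arntl had a mean of 3.96 ± 5.94 FPKM (SD, n = 5) in control aortas, 12.6 ± 11.0 (n = 4) in control with vitamin D and 7.94 ± 2.40 (n = 5) in uremic aortas. In the control rats it was 0.723 FPKM in rat 41, 1.47 in rat 42, 3.06 in rat 43, 0.148 in rat 44 and 14.4 in rat 46. The uremic values were 6.66 in rat 9, 10.3 in rat 17, 10.5 in rat 20, 5.07 in rat 27 and 7.10 in rat 28. All 5 uremic rats were above control rats 41 to 44 and below control rat 46. On the log2(FPKM + 1) scale the uremic group was higher by 1.47 (SE 0.54), which missed the threshold used throughout, a limma p under 0.05 after Benjamini-Hochberg adjustment across the tested genes (adjusted p = 0.0713). Without control rat 46 the control mean was 1.35 ± 1.26 FPKM (n = 4), the groups no longer overlapped and the difference was 2.04 (SE 0.33, limma adjusted p = 0.0011). Limma-voom on recovered reads called Arntl higher with all libraries (2.17, adjusted p = 0.0337). Control rat 44's value rests on 1 read.

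Npas2, which can take the place of Clock as Arntl's partner, ranged from 5.54 to 24.6 FPKM in control aortas (mean 12.0 ± 7.83, n = 5) and from 6.97 to 15.8 in uremic aortas (12.8 ± 3.41, n = 5). Its uremic to control difference was 0.23 (SE 0.33) on log2(FPKM + 1), and 0.52 (SE 0.26) without control rat 46. Neither passed the test, with limma adjusted p-values of 0.663 and 0.188. Npas2 and Arntl thus had in common the order of control rat 46 at the top, but not the distance between uremic rats and the other controls, where Npas2 ranges overlapped.

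Across the 10 genes, 4 were lower and 0 higher in uremic than in control aortas, namely Per1, Per2, Per3 and Dbp. Of all 9957 genes tested in this comparison, 21.9% were called, 10.5% lower and 11.4% higher. The median difference of the 10 genes was -0.80 on log2(FPKM + 1), beside 0.005 over all tested genes. An unadjusted limma p under 0.05 was reached by 6 of the 10, beside 35.2% of all genes. Without control rat 46, 8 of the 10 were called, 7 lower and Arntl higher, while 21.2% of all tested genes were called, 10.3% lower and 10.9% higher. That rat was chosen by the clock genes and not by all genes, so this count and this share are not on equal terms. Leaving out another rat gave fewer calls or the same number. It was 1 of 10 without control rat 41, 42 or 44 or uremic rat 20, 2 without control rat 43 or uremic rat 9, 17 or 28, and 4 without uremic rat 27. Over all genes these fits called 1684 to 2224, of 9859 to 9919 tested. In bulk aorta, fewer cells of a type and less RNA per cell cannot be told apart.

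Among the repressors, Per2 was the gene whose groups did not overlap with all libraries, 1 of 10 where 15.7% of all tested genes did not overlap. Its control values were 69.4 FPKM in rat 41, 57.6 in rat 42, 48.3 in rat 43, 86.8 in rat 44 and 35.0 in rat 46. The uremic values were 30.3 in rat 9, 33.0 in rat 17, 32.9 in rat 20, 30.1 in rat 27 and 33.5 in rat 28. The highest uremic value was thus just under the lowest control value, which came from rat 46. Per2 fell from 59.4 ± 19.8 (SD, n = 5) to 31.9 ± 1.62 (n = 5), a ratio of means of 0.538, with a log2(FPKM + 1) difference of -0.81 (SE 0.19, limma adjusted p = 0.00986). It was called in every alternative and with each rat left out, with an adjusted p of at most 0.0271.

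Per1, a light- and hormone-responsive member of the family, was 92.9 FPKM in control rat 41, 118 in rat 42, 97.0 in rat 43, 125 in rat 44 and 41.7 in rat 46. In uremic aortas it was 48.5 in rat 9, 62.4 in rat 17, 46.6 in rat 20, 44.3 in rat 27 and 57.3 in rat 28. Control rat 46 lay below all 5 uremic rats and the other controls lay above them. Per1 fell from 95.0 ± 32.7 to 51.8 ± 7.69 (n = 5 each), a difference of -0.78 (SE 0.25, limma adjusted p = 0.0391), and of -1.05 (adjusted p = 2.9e-04) without control rat 46. The call was kept without uremic rat 17 (adjusted p = 0.0434) and lost when any of the other 8 rats was left out, with adjusted p-values of 0.0584 to 0.0949. It was also lost with no filter on low values (0.0599), quantile normalization (0.055) and 1 fit over the 3 groups (0.0505).

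Per3 is the Per gene that is dispensable for the core loop in mice. It was 22.4 FPKM in control rat 41, 27.1 in rat 42, 14.8 in rat 43, 29.2 in rat 44 and 4.94 in rat 46. The uremic values were 5.76 in rat 9, 5.77 in rat 17, 5.04 in rat 20, 11.8 in rat 27 and 6.80 in rat 28. Rat 46 was again below all uremic rats, and rat 27 was nearest to the other controls. Per3 fell from 19.7 ± 9.92 to 7.03 ± 2.72 (n = 5 each), a difference of -1.22 (SE 0.38, limma adjusted p = 0.0391), and of -1.62 (adjusted p = 6.7e-04) without control rat 46. Without uremic rat 27 it was -1.40 (adjusted p = 0.0223), and leaving out any of the other 8 rats ended the call, with adjusted p-values of 0.0602 to 0.0948. So did no filter on low values (0.0636), 1 fit over the 3 groups (0.0571) and limma-voom on recovered reads (0.0663).

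Cry2, which encodes a partner of the Per proteins, lay within 7.44 to 14.0 FPKM in all 14 aortas. Its means were 11.2 ± 2.35 in control (n = 5), 10.4 ± 2.45 in control with vitamin D (n = 4) and 10.9 ± 1.19 in uremic aortas (n = 5). The uremic to control difference was -0.02 (SE 0.15) on log2(FPKM + 1), and -0.01 (SE 0.17) without control rat 46, with limma adjusted p-values of 0.937 and 0.985. These SEs are small beside the changes of the Per genes, and Cry2 was the gene of the 10 with the smallest difference in this comparison.

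The nuclear receptor Nr1d1 (Rev-erb alpha) was 203 FPKM in control rat 41, 268 in rat 42, 175 in rat 43, 189.7 in rat 44 and 6.32 in rat 46. In uremic aortas it was 33.3 in rat 9, 25.8 in rat 17, 16.9 in rat 20, 77.0 in rat 27 and 57.2 in rat 28. The uremic rats lay between rat 46 and the other 4 controls, with a wide gap on the upper side. The group difference was -1.50 (SE 0.83) on log2(FPKM + 1) with all libraries (168 ± 97.3 against 42.0 ± 24.6, n = 5 each, limma adjusted p = 0.219). It was -2.46 (SE 0.35, adjusted p = 5.6e-04) without control rat 46, where the 4 controls averaged 209 ± 41.0. Thra, listed at the same locus, was 142 ± 25.6 FPKM in control and 79.7 ± 5.70 in uremic aortas and was highest among the controls in rat 46 (183), the rat with the lowest Nr1d1. Its part in the Nr1d1 values was not tested.

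Nr1d2 (Rev-erb beta), the related receptor, ranged from 1.09 to 18.6 FPKM in control and from 4.77 to 10.1 in uremic aortas. The low end in controls was rat 46, and the next control was rat 43 at 9.43. With means of 11.9 ± 7.02 and 6.96 ± 2.44 (n = 5 each), the difference was -0.41 (SE 0.50, limma adjusted p = 0.602), and without control rat 46 it was -0.98 (SE 0.24, adjusted p = 0.0134). The groups overlapped in either case.

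Dbp, the output factor with the highest mean among the 10 genes in control aortas, showed the largest fitted difference of the 10 genes in this comparison. Its control values were 326 FPKM in rat 41, 382 in rat 42, 153 in rat 43, 363 in rat 44 and 14.4 in rat 46. The uremic values were 24.9 in rat 9, 11.7 in rat 17, 17.1 in rat 20, 59.5 in rat 27 and 28.9 in rat 28. Rats 41 to 44 were all above the uremic range, and rat 46 was inside it. Dbp was 8.71-fold lower in the mean, 28.4 ± 18.6 against 248 ± 159 (n = 5 each), with a difference of -2.66 (SE 0.76, limma adjusted p = 0.0252). Without control rat 46 it was 10.8-fold lower, with a difference of -3.50 (SE 0.40, adjusted p = 1.2e-04). The call was lost without control rat 41 (adjusted p = 0.0611), control rat 42 (0.0647), control rat 44 (0.0627), uremic rat 17 (0.0591) or uremic rat 20 (0.0566).

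Tef was 52.7 FPKM in control rat 41, 46.5 in rat 42, 25.2 in rat 43, 50.0 in rat 44 and 13.2 in rat 46, and 14.7 to 23.2 in the uremic rats. Rat 46 was below all uremic rats and the other controls were above them. The difference was -0.91 (SE 0.32) with 37.5 ± 17.4 against 17.5 ± 3.63 (n = 5 each), which missed the threshold (limma adjusted p = 0.0581). It was -1.23 (SE 0.21, adjusted p = 0.00174) without control rat 46, and passed also without uremic rat 27 (-1.01, adjusted p = 0.0474) and with libraries scaled to equal totals (-1.02, adjusted p = 0.0352). With rat 46 left out, 7 of the 10 genes did not overlap between the groups (Arntl, Per1, Per2, Per3, Nr1d1, Dbp and Tef), where 19.8% of all tested genes did not. The count carries the same limit, since that rat was chosen by these genes.

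**Figure D2:**
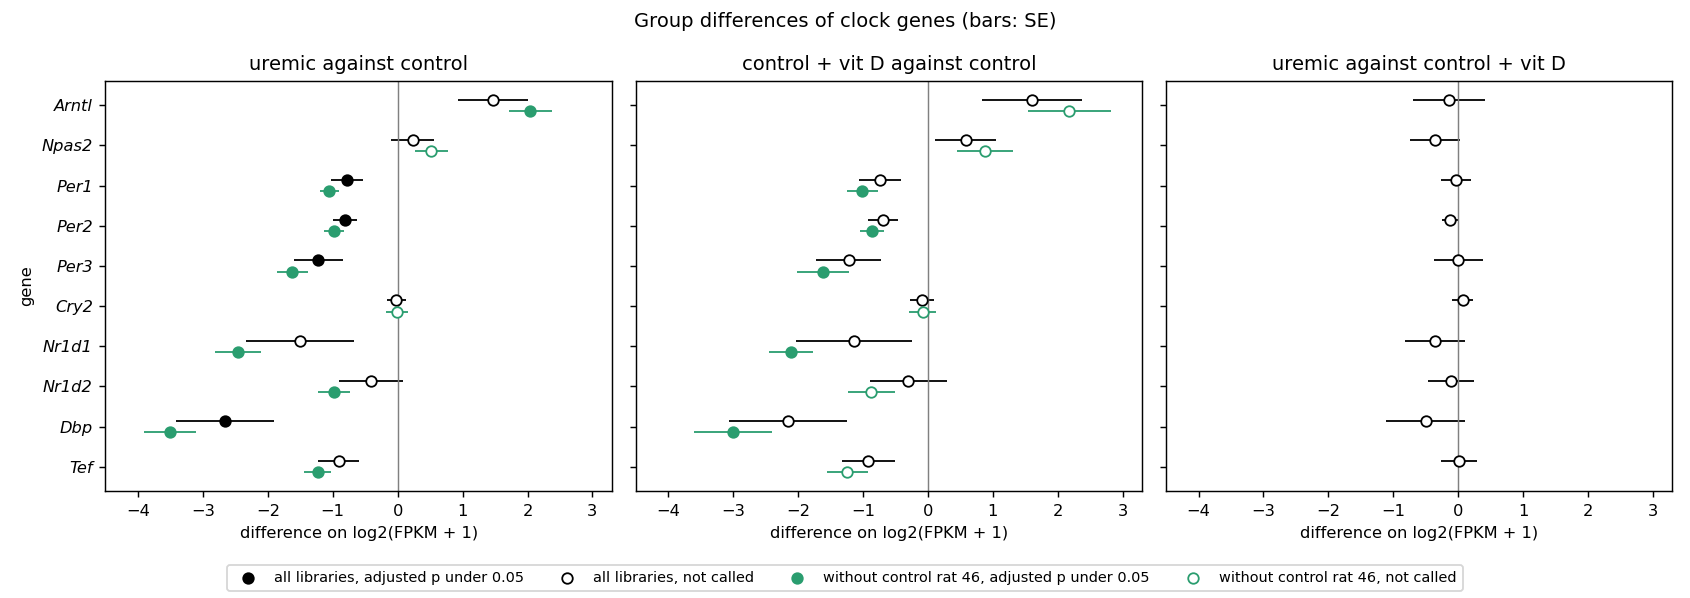
Group differences of each clock gene on the log2(FPKM + 1) scale with their SE, in 3 panels for the 3 comparisons, black with all libraries and green without control rat 46, filled where the limma adjusted p is under 0.05. Filled points number 4 black and 8 green for uremic against control, 0 black and 5 green for control with vitamin D against control, and 0 for uremic against control with vitamin D.

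In rats with intact kidneys, vitamin D was compared with no treatment, using the same 5 control libraries, so the values below are not independent of those above. With all libraries 0 of the 10 genes were called by limma, while 0.134% of the 9693 tested genes were (0.124% lower and 0.0103% higher). An unadjusted p under 0.05 was reached by 5 of the 10 (18.4% of all genes), and limma-voom on recovered reads also called 0 of the 9 genes it could test. No clock gene had groups without overlap, beside 5.72% of all tested genes. The fitted differences were 1.60 (SE 0.77) for Arntl, 0.58 (SE 0.47) for Npas2 and between -2.16 and -0.09 for the other 8. Without control rat 46, 5 of the 10 were called, all lower, while 4.01% of tested genes were called, 1.58% lower and 2.42% higher. Here too that rat was chosen by the clock genes, so the count is a description. Leaving out any other rat of these groups gave 0 calls among the 10. Those fits called 0 to 4 of all tested genes, except 393 of 9638 without rat 39. With so few calls over all genes, most of these zeros say little about the clock genes.

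Dbp in control with vitamin D was 13.9 FPKM in rat 36, 106 in rat 37, 69.1 in rat 38 and 14.1 in rat 39. These values fall into a low and a high pair, with both pairs below control rats 41 to 44 and rat 46 between the low pair and the high pair. The difference from control was -2.16 (SE 0.91, limma adjusted p = 0.238) with all libraries and -3.00 (SE 0.60, adjusted p = 0.0343) without control rat 46. Arntl mirrored this, at 20.4 in rat 36, 1.94 in rat 37, 4.40 in rat 38 and 23.5 in rat 39, and its difference of 2.18 (SE 0.64) without control rat 46 missed the threshold (adjusted p = 0.0818).

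Per2 was 31.4 FPKM in rat 36, 42.6 in rat 37, 37.5 in rat 38 and 29.1 in rat 39, a narrow range for this group. Its mean of 35.2 ± 6.11 (n = 4) lay below the control mean, with a difference of -0.69 (SE 0.23, limma adjusted p = 0.149), and of -0.86 (SE 0.18, adjusted p = 0.0356) without control rat 46. The other 3 genes called without that rat were Per1 at -1.01 (SE 0.24, adjusted p = 0.0471), Per3 at -1.62 (SE 0.40, adjusted p = 0.0493) and Nr1d1 at -2.11 (SE 0.34, adjusted p = 0.0276). For Nr1d1 all 4 rats given vitamin D (18.9 to 71.5 FPKM) were below control rats 41 to 44 (175 to 268). Of the 10 genes, 5 did not overlap without control rat 46 (Per1, Per2, Per3, Nr1d1 and Dbp), where 12.7% of tested genes did not. This count is a description as well, for the same reason.

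Uremic aortas were last set against control with vitamin D, where both groups had received vitamin D and the labels differ in the nephrectomy. Here 0 of the 10 genes were called, 0 reached an unadjusted p under 0.05 by limma, and limma-voom called 0 of the 9 it could test. In the same comparison 13.2% of the 9916 tested genes were called (6.03% lower and 7.19% higher) and 28.8% had an unadjusted p under 0.05. The median difference of the 10 genes was -0.11 on log2(FPKM + 1), beside 0.01 over all tested genes. The differences ran from -0.50 (SE 0.61) for Dbp to 0.07 (SE 0.16) for Cry2. For Per2 the difference was -0.12 (SE 0.13), and for Arntl -0.14 (SE 0.55). All 10 genes overlapped between the groups, where 12.7% of tested genes did not. The SEs of Dbp, Arntl and Nr1d1 (0.46) were wide, so a p that misses the threshold does not show that these groups were alike.

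**Figure D3:**
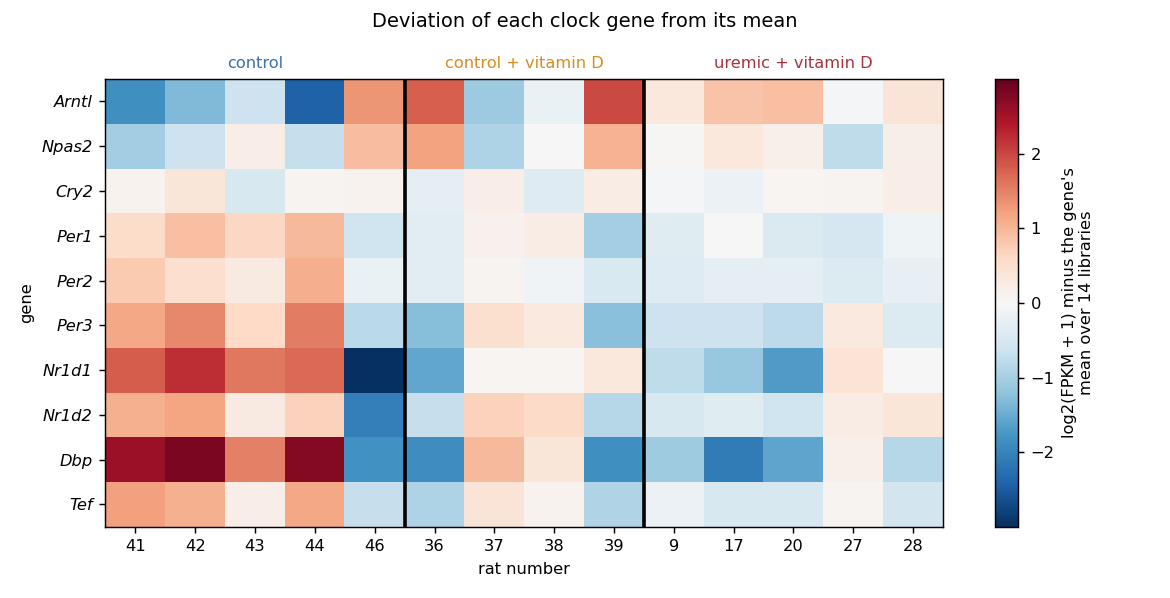
Deviation of each clock gene (rows) in each rat (columns, grouped) from its mean over 14 libraries, on the log2(FPKM + 1) scale, red for above and blue for below. Control rats 41 to 44 are blue in Arntl and red in Per1, Per2, Per3, Nr1d1, Nr1d2, Dbp and Tef, and control rat 46 has the opposite colours.

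The order of the 10 genes by level was not the same in each group. In control aortas the order of mean FPKM was Dbp (248), Nr1d1 (168), Per1 (95.0), Per2 (59.4), Tef (37.5), Per3 (19.7), Npas2 (12.0), Nr1d2 (11.9), Cry2 (11.2) and Arntl (3.96). The ranges of each neighbouring pair overlapped, though Per1 exceeded Per2, Per2 exceeded Tef and Tef exceeded Per3 within each of the 5 rats. In uremic aortas the order began with Per1 (51.8), Nr1d1 (42.0), Per2 (31.9) and Dbp (28.4), and Arntl (7.94) stood above Per3 (7.03) and Nr1d2 (6.96). In control with vitamin D, Per1 (55.9), Nr1d1 (52.5) and Dbp (50.9) led and Per3 (8.02) was last. Neighbours in these orders overlapped in each group as well.

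The ratio of Dbp to Arntl in FPKM sets an output against the activator within the same library. In control aortas it was 451 in rat 41, 259.5 in rat 42, 49.9 in rat 43 and 1.00 in rat 46, and it is left out for rat 44, where Arntl had 1 read. The uremic ratios were 3.74 in rat 9, 1.13 in rat 17, 1.62 in rat 20, 11.7 in rat 27 and 4.06 in rat 28. With vitamin D and intact kidneys it was 0.679 in rat 36, 54.9 in rat 37, 15.7 in rat 38 and 0.601 in rat 39. Control rats 41 to 43 were thus above all 5 uremic rats, and control rat 46 was below them all.

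**Figure D4:**
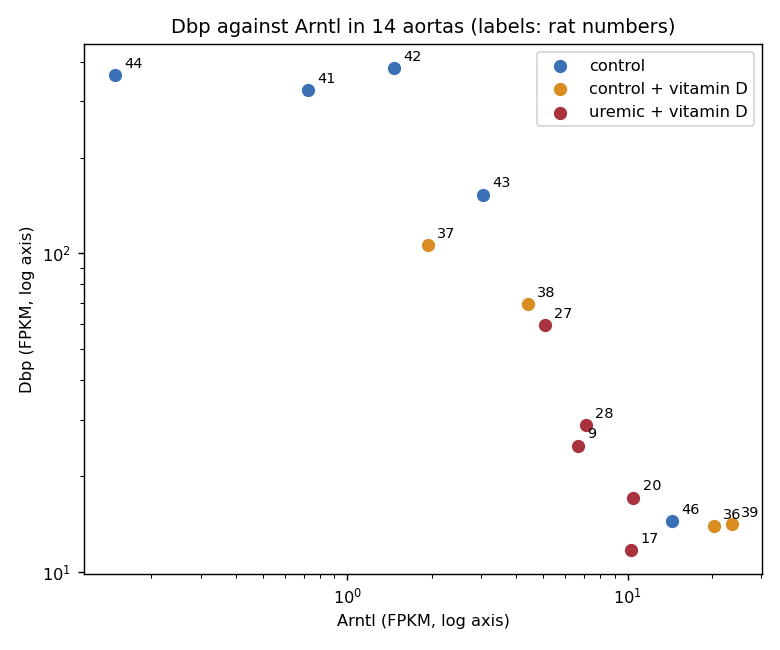
Dbp against Arntl in FPKM, both on log axes, with 1 point per rat, its number beside it and colours for the 3 groups. Points run from upper left (control rats 41, 42 and 44, with Dbp of 326 to 382) to lower right (rats 36, 39 and control rat 46, with Dbp of 13.9 to 14.4), with the 5 uremic rats in the lower part of the band.

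How the genes moved together from rat to rat was described after removing each group's mean from log2(FPKM + 1), so that differences between groups played no part. Over the 14 libraries, Arntl and Npas2 rose and fell together (Pearson's r = 0.93, Spearman's rho = 0.93; permutation p within groups 3.0e-04 and 1.6e-04, Benjamini-Hochberg adjusted over 9 relations 6.7e-04 and 0.00103). Arntl and Dbp ran opposite (r = -0.94, rho = -0.92; permutation p 9.0e-05 and 4.6e-04, adjusted 5.7e-04 and 0.00103). So did Arntl and Tef (r = -0.96, rho = -0.94; permutation p 1.8e-04 and 4.2e-04, adjusted 5.7e-04 and 0.00103) and Arntl and Per3 (r = -0.96, rho = -0.94; permutation p 1.9e-04 and 2.7e-04, adjusted 5.7e-04 and 0.00103). Nr1d2 and Per2 followed with r of -0.89 and -0.88 (permutation p 0.00288 and 8.1e-04, adjusted 0.00432 and 0.00146), and their rho were -0.85 and -0.81 (permutation p 0.00493 and 0.0122, adjusted 0.00887 and 0.0184). Per1 had r = -0.81 and rho = -0.67 (permutation p 0.0131 and 0.0298, adjusted 0.0168 and 0.0335), and Nr1d1 r = -0.71 and rho = -0.59 (permutation p 0.0241 and 0.0197, adjusted 0.0271 and 0.0253). Cry2 showed no such relation that passed the test (r = -0.13, rho = -0.13; permutation p 0.723 and 0.714, adjusted 0.723 and 0.714). Leaving out rats 37 and 46, the farthest from the median in Arntl, gave r of 0.89 for Npas2, -0.91 for Dbp, -0.93 for Tef, -0.92 for Per3, -0.82 for Nr1d2, -0.80 for Per2, -0.68 for Per1, -0.55 for Nr1d1 and -0.07 for Cry2. The group means removed here still included rats 37 and 46. The remaining rats of their groups thus kept a common offset, and differences between groups enter these r. They do not show the relations free of those rats. Within a single group there were too few rats for a correlation of its own, and the libraries share their depth scaling.

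Among 8423 genes with at least 1 FPKM in all 14 libraries, the 5 most like Arntl by this measure were Npas2 (0.93), Amz2 (0.89), Col5a3 (0.87), Thra (0.86) and Arg1 (0.84). At the other end were Rnaseh2b (-0.97), Tef (-0.96), Per3 (-0.96), Dbp (-0.94) and Nr1d2 (-0.89), so 4 of the 5 genes most opposed to Arntl were clock genes of the list. For Dbp the 5 most like it were Per3 (0.97), Nr1d2 (0.96), Tef (0.95), Rnaseh2b (0.92) and Wee1 (0.90). The most opposed to Dbp were Npas2 (-0.91), Amz2 (-0.85), Aptx (-0.83), Leo1 (-0.83) and Col5a3 (-0.83). These are correlations over 14 libraries given as a description. Thra's place near Arntl carries the same limit as Nr1d1, since the pair shares a locus.

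The spread between rats of a group was measured as the SD of log2(FPKM + 1), whose median over the 10109 genes with at least 1 FPKM in 4 of the 14 libraries was 0.24 in control, 0.26 in control with vitamin D and 0.26 in uremic aortas. In control aortas Nr1d1 had an SD of 2.17 and ranked 6 from the top of these genes, Dbp (1.96) ranked 10, Arntl (1.45) ranked 22 and Nr1d2 (1.33) ranked 29. Cry2 was near the middle, with an SD of 0.30 that 33.5% of genes exceeded. Without control rat 46 the SD of Nr1d1 was 0.27 (rank 3693), that of Dbp 0.61 (rank 420) and that of Arntl 0.78 (rank 156), so Nr1d1's high rank rested on that rat. In control with vitamin D, Arntl (1.50, rank 21) and Dbp (1.48, rank 23) were again among the most variable genes. Uremic aortas were tighter for Arntl (0.39) and Per2 (0.07, an SD that 98.5% of genes exceeded), and there Dbp and Nr1d1 had the largest SDs of the 10, both 0.85. Whether the groups' spreads differ was not tested.

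**Figure D5:**
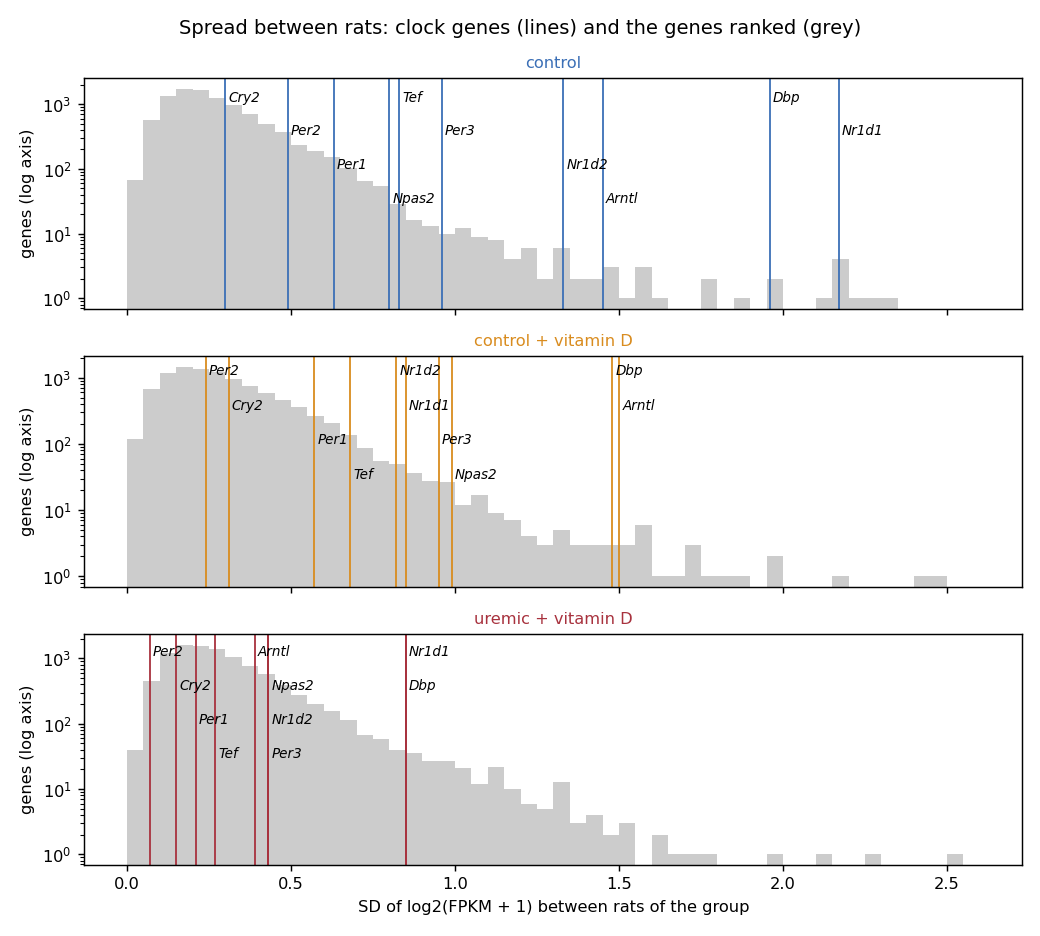
Number of genes (log axis) by the SD of log2(FPKM + 1) between rats of a group in 3 panels, grey for the 10109 genes ranked and coloured lines for the clock genes. Nr1d1 (2.17) and Dbp (1.96) lie far to the right in control aortas, while Per2 (0.07) lies at the left edge in uremic aortas, where the lines of Dbp and Nr1d1 coincide at 0.85.

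Other parts of the loop were read from lists of clock genes. Of 12 further core genes 8 were in the table, with Rorb at 0 in all libraries, and the others were not analysed here. The table lists 3750 of its 17019 genes at 0 in every library, so a 0 here or below may not mean absent expression. In uremic against control, 2 of 7 tested rose and 0 fell, where 21.9% of all tested genes were called and 11.4% were called higher. Clock, the usual partner of Arntl, rose from 1.78 ± 0.998 to 4.57 ± 1.53 FPKM (n = 5 each), a difference of 1.02 on log2(FPKM + 1) (SE 0.26, limma adjusted p = 0.0145). Its values rest on 6 to 24 reads per control library and 16 to 96 per uremic library. Arntl2, the paralogue of Arntl, rose from 0.361 ± 0.392 to 2.47 ± 1.12 FPKM (1.34, SE 0.25, adjusted p = 0.00221). It passed the filter on low values only through the uremic group, and its values rest on 0 to 4 reads per control library and 8 to 26 per uremic library. Its p-values and its place among the 2 that rose are therefore descriptions. Without control rat 46 the limma adjusted p was 0.00471 for Clock and 0.00547 for Arntl2, with the same limit for Arntl2. Clock also passed in control with vitamin D against control once that rat was left out (0.91, SE 0.21, adjusted p = 0.0422), and with all libraries it was 0.73 (SE 0.24, adjusted p = 0.151). Cry1, the paralogue of Cry2, had means of 3.50 and 3.39 FPKM in control and uremic aortas (0.01, SE 0.25, adjusted p = 0.986; 0.04 without control rat 46, adjusted p = 0.934).

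Between uremic aortas and control with vitamin D, 1 of 7 of these core genes was higher and 1 lower, beside 7.19% and 6.03% of all tested genes. Bhlhe40, a repressor that binds E-boxes, was 94.4 ± 32.6 FPKM in uremic aortas and 41.7 ± 21.5 in control with vitamin D (1.21, SE 0.32, limma adjusted p = 0.0305). Nfil3, a repressor of D-box genes that opposes Dbp and Tef, was 32.3 ± 12.5 against 63.7 ± 22.4 FPKM (-0.96, SE 0.28, adjusted p = 0.0447). In control aortas they were 64.5 ± 20.7 and 45.9 ± 31.5 FPKM, and control rat 46 had the lowest Bhlhe40 (31.4) and the highest Nfil3 (81.6) of its group.

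Kinases, ubiquitin ligases and other enzymes that act on clock proteins were represented by 12 of 14 listed genes, all tested. In uremic against control, 1 rose and 1 fell, with and without control rat 46, beside 21.9% and 21.2% of all tested genes called. Prkaa1, the catalytic alpha-1 subunit of AMP-activated kinase, rose from 10.5 to 20.1 FPKM (0.88, SE 0.16, limma adjusted p = 0.00216; 0.93 without control rat 46, adjusted p = 0.00279). Usp2, a deubiquitinase with a strong daily rhythm in mice, fell from 9.98 ± 4.28 to 4.33 ± 1.14 FPKM (-0.98, SE 0.26, adjusted p = 0.017), and by 1.18 on log2 without control rat 46 (adjusted p = 0.00302). The casein kinases Csnk1d and Csnk1e, which phosphorylate Per proteins, had differences of -0.25 (SE 0.11) and -0.37 (SE 0.13), with adjusted p-values of 0.138 and 0.0635, and without control rat 46 of 0.132 and 0.0623. No gene of this list was called in the other comparisons by limma (0 of 12 in each). All tested genes gave 0.134% called in control with vitamin D against control and 13.2% in uremic against control with vitamin D. An unadjusted limma p under 0.05 was reached by 1 of the 12 in the former (18.4% of all tested genes) and 2 in the latter (28.8%).

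Of 23 listed output genes, a list that also holds Usp2, 16 were tested, and 2 rose and 3 fell in uremic against control, and 1 rose and 3 fell without control rat 46, beside 21.9% and 21.2% of all tested genes called. Wee1, a cell cycle kinase gene under E-box control in mouse liver, fell from 29.7 ± 11.5 to 9.86 ± 1.87 FPKM (-1.42, SE 0.25, limma adjusted p = 0.00155; -1.66 without control rat 46, adjusted p = 8.2e-05), with no overlap between the groups. Ppard, a fatty acid receptor, fell from 24.9 to 16.9 FPKM (-0.56, SE 0.15, adjusted p = 0.0186; -0.60 without control rat 46, adjusted p = 0.0214), and Cdkn1a, the p21 inhibitor of the cell cycle, rose from 38.7 to 78.5 (0.97, SE 0.18, adjusted p = 0.00227; 1.02 without that rat, adjusted p = 0.00302). Tsc22d3, a glucocorticoid-induced gene, rose from 56.7 to 99.1 FPKM (0.85, SE 0.25, adjusted p = 0.0319) but not past the threshold without control rat 46 (0.67, adjusted p = 0.0613). Wee1 in control with vitamin D was 15.2 ± 5.11 FPKM (n = 4), -0.88 from control (SE 0.30, adjusted p = 0.162), and -1.12 without control rat 46 (SE 0.23, adjusted p = 0.0343). Of the 16 output genes 0 were called in that comparison, beside 0.134% of all tested genes. Without control rat 46, 3 were higher and 1 lower, beside 4.01%. Between uremic aortas and control with vitamin D, 1 of 16 was higher and 2 lower, beside 13.2% of all tested genes called.

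Genes that respond to signals known to act on Per1 and Per2 were read from 3 further lists. Uremic aortas had 5 of 15 glucocorticoid-responsive genes higher and 4 lower than control aortas, and 4 and 3 without control rat 46. Of all tested genes 11.4% were higher and 10.5% lower, and 10.9% and 10.3% without that rat. The metallothionein gene Mt2A rose from 2.63 to 45.5 FPKM (3.83, SE 0.50, limma adjusted p = 1.9e-04; 3.45 without that rat, adjusted p = 2.2e-04), and the kinase gene Sgk1 from 34.3 to 65.4 (0.89, SE 0.16, adjusted p = 0.00184; 0.82 without it, adjusted p = 0.00448). Of 19 immediate early genes tested 5 rose and 5 fell, 3 and 6 without that rat. Among 6 tested genes for heat shock and cold-induced RNA-binding proteins 0 rose and 5 fell, with and without that rat. Cirbp, a cold-induced protein that acts on clock transcripts in mouse cells, fell from 58.2 ± 8.51 to 36.8 ± 9.01 FPKM (-0.67, SE 0.16, limma adjusted p = 0.0112, and -0.70 without that rat, adjusted p = 0.0142). Rbm3, also cold-induced, had means of 237 and 192 FPKM. The heat shock genes had larger ratios of control to uremic means. These were 126 and 13.3 FPKM for Hspa1b, 208 and 67.4 for Hsph1, 129 and 32.5 for Dnajb1 and 46.8 and 20.1 for Hsp90aa1. In control with vitamin D against control the calls were 0 of 14, 1 of 19 (lower) and 0 of 6, beside 0.134% of all tested genes. Between uremic aortas and control with vitamin D they were 5 of 14 (all higher), 7 of 19 (4 higher and 3 lower) and 4 of 6 (all lower). All tested genes gave 13.2% there. In control with vitamin D, Cirbp (40.8 FPKM) and Rbm3 (174) were near their uremic means. The heat shock genes were far above theirs, at 136 for Hspa1b, 266 for Hsph1, 138 for Dnajb1 and 71.2 for Hsp90aa1. The part of these signals in the clock gene values was not tested.

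Cell type markers of some lists moved with the groups as well. The counts below stand beside 21.9% of all tested genes called in uremic against control (21.2% without control rat 46). In uremic against control with vitamin D that share was 13.2%. In control with vitamin D against control it was 0.134% (4.01% without control rat 46). In uremic against control, 9 of 9 macrophage genes were higher (summed level 496 to 677 FPKM against 56.9 to 139), 7 of 10 smooth muscle genes were lower (10035 to 21119 against 22553 to 31434), and 4 of 7 fibroblast genes were lower (1896 to 4029.8 against 3074 to 5112). Brown fat genes, with 1 of 7 called lower and Elovl3 at 0, summed to 131 to 609 FPKM in uremic and 349 to 874 in control aortas. White fat genes, with 2 of 9 higher and 1 lower, summed to 1757 to 8645 and 2294 to 5861. Calls were 0 of 8 for endothelium (152 to 309 against 175 to 239), 1 of 4 higher for cardiac muscle with Nppa at 0 (11.1 to 22.9 against 10.4 to 15.3), 2 of 3 lower for skeletal muscle (45.1 to 92.5 against 69.2 to 121) and 0 of 5 for red blood cells (1222 to 15060.5 against 173 to 8685). Without control rat 46, 8 of 10 smooth muscle genes were lower and 1 of 8 endothelial genes was higher, and the other 7 lists had the same numbers of calls. Between uremic aortas and control with vitamin D, 9 of 9 macrophage genes were again higher (77.4 to 147 FPKM in the latter). Lower there were 5 of 7 brown fat and 3 of 10 smooth muscle genes. Of 7 fibroblast genes 1 was higher and 1 lower. Higher were 1 of 9 white fat, 1 of 8 endothelial and 1 of 5 red blood cell genes. Calls were 0 of 4 for cardiac and 0 of 2 for skeletal muscle. In control with vitamin D against control, 1 of 9 white fat genes was higher and 2 of 7 fibroblast genes were lower, with 0 called in the other 7 cell type lists, and without control rat 46 there were 6 of 9 white fat and 3 of 7 brown fat genes higher and 3 of 7 fibroblast genes lower. Summed levels in control with vitamin D were 3026 to 8331 FPKM for white fat, 435 to 1769.9 for brown fat, 1886 to 2817 for fibroblasts, 16570.0 to 29417 for smooth muscle and 104 to 183 for endothelium. Control rat 46 had the highest white fat sum (5861) and brown fat sum (874) of the controls. In control with vitamin D, rats 36 and 39 had high Arntl and low Dbp, as rat 46 did. Their white fat sums were 6505 and 3026 FPKM and their brown fat sums 1012 and 435. Rats 37 and 38, with the reverse in Arntl and Dbp, had white fat sums of 7110.4 and 8331 and brown fat sums of 934 and 1769.9. Rat 39, unlike rat 46, had the highest Nr1d1 of its group. The part of cell makeup in the clock gene values was not tested.

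The authors' deposited table gives its own q values for each pair of groups. In it 8 of the 10 genes had q under 0.05 for uremic against control, where 11.2% of the 17019 genes did, and the exceptions were Npas2 (q = 0.813) and Cry2 (q = 0.923). For control with vitamin D against control, the authors' deposited table has 7 of 10 under 0.05, where 5.20% of genes are, with Nr1d1 (0.0693), Nr1d2 (0.0963) and Cry2 (0.822) above it. Between uremic aortas and control with vitamin D it has 3 of 10, Arntl (0.0169), Npas2 (0.0223) and Dbp (0.00121), where 9.58% of genes are. None of these 3 had an unadjusted p under 0.05 in the fit across rats reported here. The authors' shares are over all 17019 genes, 3750 of them at 0 in every library, while all 10 clock genes were detected. They are thus not on equal terms with the shares of tested genes given above.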

How the data were processed

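Libraries of polyadenylated RNA were made from 14 aortas, 1 per rat. Cuffdiff, Cufflinks 2.1.1, TopHat2 2.0.10 and cutadapt 1.3 are the authors' tools, and rn5 the build, per the submitters' processing notes. The deposited values carry no unit and were read as FPKM, normalised by the authors for length and depth. The deposited q-values are the authors' adjusted p-values. limma 3.58.1 in R 4.3.3 (trended variance, 2-sided) was run on log2(FPKM + 1) for genes with at least 1 FPKM in 4 libraries of the 2 groups compared, across all such genes, with Benjamini-Hochberg adjustment. Whole reads were recovered from FPKM steps for 10915 of 11294 genes (96.6%, within 0.1 read; 1 of 1000 shuffled genes was whole) and tested with limma-voom as an alternative; Nr1d1 had no whole-read solution. A library held 1331100 to 4539065 reads, with a median of 55 per gene. Correlations used 100000 permutations within groups. The fits were tested on simulated data. Alternatives were another pseudocount, filters, scalings, a joint fit and each rat left out. Members and lists were chosen with earlier results of these data known. Named were all members, called core and enzyme genes, the smallest p-values of other lists and the nearest correlates of Arntl and Dbp; Cry1, Csnk1d, Csnk1e and Thra were added after their values were seen.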

Additional observations from a re-analysis of the deposited data

Results flagged for a closer look

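Within each group, each clock gene was checked for a rat far from the others (its gap to the nearest rat divided by the group's range, against Dixon's 95% critical value). The gaps were taken on FPKM and not on log2(FPKM + 1), the scale of the fits, where the check was not run. Of 30 sets of values 2 passed, where chance gives about 1 in 20 if values are normally distributed. Whether FPKM values are so distributed was not tested, so the 2 flags hold for the FPKM scale only. Control rat 46 had 14.4 FPKM of Arntl, with a gap of 0.796 of the range. Uremic rat 27 had 11.8 FPKM of Per3, with a gap of 0.738 of the range.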

How the results depend on the processing

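In uremic against control, the 4 called genes became 2 with no filter on low values and 2 with 1 fit over the 3 groups, and 1 to 8 with each rat left out. Over all tested genes the calls were 2169 of 13148, 2173 of 9957 and 1684 to 2224. In control with vitamin D against control, 0 calls became 0 to 5 with each rat left out, 5 without control rat 46. Over all tested genes these fits called 0 to 393. In uremic against control with vitamin D no setting gave a call among the clock genes, while 659 to 1662 of all tested genes were called. No paired analysis was possible because the groups share no rat numbers. Of 236 differences of single clock genes under other settings, 221 kept direction and side of the threshold, 6 lost the call, 2 gained it and 7 changed sign. Those were Cry2 for uremic against control by limma-voom (0.01), and for uremic against control with vitamin D Per1 under quantile normalization (0.04), Per3 under equal totals (-0.12), median-ratio scaling (-0.002) and quantile normalization (-0.05), and Cry2 (-0.06) and Tef (-0.13) under equal totals. Equal totals moved the median of all genes to -0.09 in uremic against control and -0.12 in uremic against control with vitamin D. Limma-voom called Arntl higher in uremic than control (2.17, adjusted p = 0.0337) and not Per3 (adjusted p = 0.0663). With each rat left out, 228 of 280 differences kept direction and side of the threshold, 21 lost the call, 10 gained it and 21 changed sign. Cry2 ran from -0.15 to 0.06 for uremic against control and from -0.22 to 0.01 for control with vitamin D against control. For uremic against control with vitamin D, Arntl ran from -0.71 to 0.31, Per1 from -0.30 to 0.11, Per3 from -0.28 to 0.31, Cry2 from -0.03 to 0.17, Nr1d2 from -0.37 to 0.15, Dbp from -0.93 to 0.02 and Tef from -0.19 to 0.25. The cause of these shifts was not tested. Depth limits Arntl, at 1 to 177 reads per library, and Nr1d2, at 6 to 132. It also limits Clock and Arntl2 among the further core genes.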
